A study of Mus musculus with 12 samples.

Results

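Genes of the protein folding machinery of the endoplasmic reticulum (ER), 10 in number, were followed through sorted peritoneal macrophages (Mϕ) of mice recovering from zymosan-induced inflammation. They were Manf and Creld2, which encode secreted ER stress proteins, the chaperones Hspa5 (BiP, GRP78), Hsp90b1 (GRP94) and Calr (calreticulin), the BiP partners Sdf2l1 and Dnajb11, the disulfide isomerases Pdia4 and Pdia6, and the transcription factor Xbp1. These 10 of the 47643 genes listed in each table were found by matching their symbols to the Ensembl identifiers of the tables. The set was selected on its normalized counts in CIII against VEH libraries of these same tables, so the values of the 10 genes are described below and carry no test. Female C57BL/6 mice aged 8 to 12 weeks received zymosan A, a yeast cell wall preparation, intraperitoneally at 5 mg/kg, which all groups shared. From day 1 they were injected daily with vehicle (VEH: Tween-80, carboxymethyl cellulose and NaCl) or with compound III (CIII, 25 mg/kg), an inhibitor of mPGES-1, the enzyme that makes prostaglandin E2 downstream of the cyclooxygenases. Cells were taken by peritoneal lavage on day 6 and sorted as CD45+ CD11b+ cells with low F4/80 and MerTK and high MHCII (F4/80lo Mϕ) or with high F4/80 and MerTK (F4/80hi Mϕ). The study's gating set aside CD11c+ MHCII+ dendritic cells first, and Ly6G+ neutrophils before F4/80lo Mϕ were gated. Each treatment gave 3 libraries per subpopulation, 12 in all. All mice had received zymosan, so no group shows the untreated peritoneum. Where a pair of values is given without a label, the first is that of F4/80lo and the second that of F4/80hi Mϕ.

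Proteins that enter the secretory pathway fold in the ER, where BiP, GRP94 and calreticulin hold unfolded chains and the PDI family forms their disulfide bonds. When unfolded protein accumulates, the sensors IRE1 (Ern1), PERK (Eif2ak3) and ATF6 start the unfolded protein response (UPR). IRE1 splices the Xbp1 mRNA, and spliced XBP1 and cleaved ATF6 switch on ER chaperone genes through short promoter elements, the best known being the ER stress response element (ERSE). Mϕ secrete large amounts of protein and express these genes in the absence of added stress. MANF and CRELD2 are themselves induced by ER stress and can leave the cell. The counting used here reads the 3′ end of transcripts and cannot tell spliced from unspliced Xbp1.

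The shared promoter element is shown first, since 5 of these genes share it. Promoters, from 250 bases before to 50 bases after the annotated start, were taken from RefSeq (GRCm38.p6). They were found for 9 of the 10 genes, and Manf had none and was not searched. The ERSE was searched on both strands as CCAAT and CCACG with any 9 bases between them, and the sites found are written 5′ to 3′ on the strand that holds them, with CCAAT and CCACG in capitals.
Creld2, chr15:88819520-88819538, minus strand: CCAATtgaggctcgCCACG
Hspa5, chr2:34772025-34772043, plus strand: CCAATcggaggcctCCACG
Pdia6, chr12:17266491-17266509, plus strand: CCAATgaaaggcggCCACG
Hsp90b1, chr10:86705638-86705656, minus strand: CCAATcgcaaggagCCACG
Hsp90b1, chr10:86705533-86705551, plus strand: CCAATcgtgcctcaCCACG
Calr, chr8:84847075-84847093, plus strand: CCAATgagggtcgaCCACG

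The element was thus present in 5 of the 9 promoters, against 37 of 27025 genes with a promoter in the table (0.137%). The ERSE is known from ER chaperone genes, as given above, so its share in this set is described and not tested. Hsp90b1 held a pair of sites. The annotation used for gene coordinates starts Hspa5 further upstream than RefSeq, so its site lies before the RefSeq start and inside the gene span given below. Among 151 other genes of the ER and stress pathways described below it was found in 4, Canx, Derl3, Dnajc3 and Syvn1. The variant element ERSE-II, searched on both strands as ATTGG and CCACG with any 1 base between them, was found in Dnajb11 alone of the 9.
Dnajb11, chr16:22857852-22857862, plus strand: ATTGGcCCACG

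That site lies 8 to 18 bases after the annotated start of Dnajb11, and 12 of the 27025 genes (0.0444%) held the variant, Herpud1 among them. The XBP1-binding core TGACGTGG was in none of the 9 windows, against 0.714% of all genes. Sdf2l1, Pdia4 and Xbp1 held none of the 3 elements in these letters and this window. For Creld2, whose difference between the treatments is described next, the 150 bases before the start on the plus strand (chr15:88819496-88819645) are given in full, with the ends of the inverted ERSE in capitals.
Creld2 promoter: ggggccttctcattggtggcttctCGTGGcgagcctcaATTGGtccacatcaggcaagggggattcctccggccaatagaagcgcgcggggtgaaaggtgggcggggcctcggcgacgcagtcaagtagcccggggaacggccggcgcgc

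**Figure D1:**
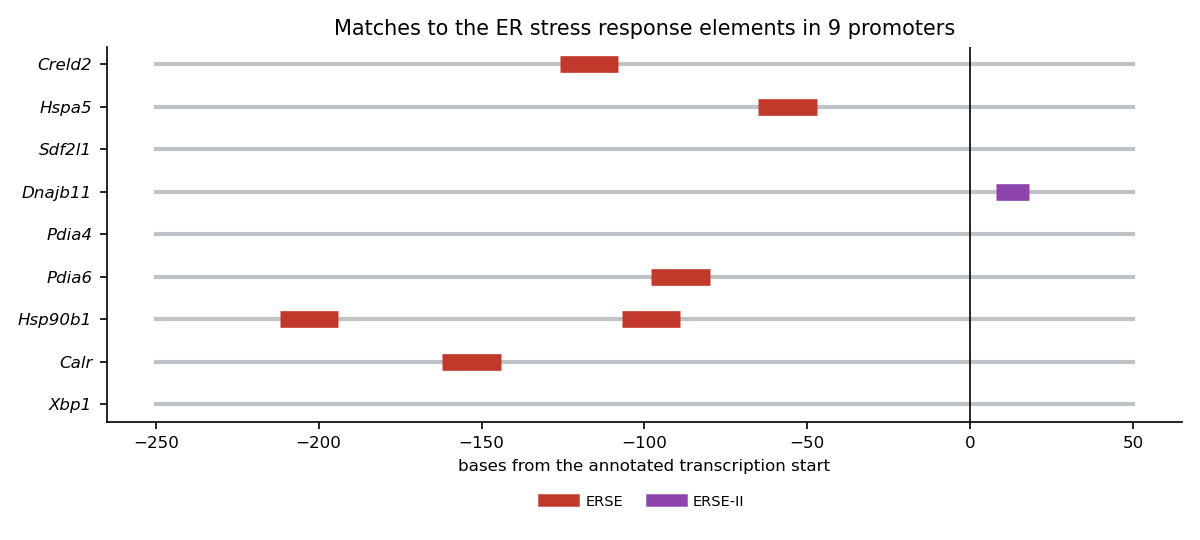
Position of the matches to ERSE (red) and ERSE-II (purple) in the promoters of 9 genes, in bases from the annotated transcription start (0). Manf had no promoter entry and was not searched. The ERSE matches all lie before the RefSeq start, between 212 and 47 bases from it, and the Dnajb11 ERSE-II match lies after it.

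The libraries held 426624 to 3389448 reads on genes. Defining Mϕ markers were present, with 8 of 8 passing the filter on low values in both subpopulations. The libraries of replicate number 3 stood apart in all 4 groups: the transcript Gm42418 took 2.65% to 14.3% of their reads, against 0.0723% to 0.579% in numbers 1 and 2. Cell markers set number 3 apart too. In F4/80hi Mϕ VEH replicate 3 had 366 RPM of Adgre1 (F4/80) against 1064 and 1336 in the other VEH libraries, 1.90 RPM of the resident Mϕ factor Gata6 against 34.5 and 52.0, and 336 RPM of Ly6c2 against 4.14 and 2.89. CIII replicate 3 of F4/80hi Mϕ had 368 RPM of Adgre1 against 1145 and 1204, 5.73 RPM of Gata6 against 23.2 and 39.3, and 55.0 RPM of Ly6c2 against 14.4 and 2.71. In F4/80lo Mϕ VEH replicate 3 had 602 RPM of the MHCII gene H2-Aa against 4728 and 4511. The list of resident peritoneal Mϕ summed to 469 to 674 RPM in VEH and 414 to 502 in CIII F4/80lo Mϕ, and to 424 to 1822 and 645 to 1470 in F4/80hi Mϕ, with VEH replicate 3 the lowest of the latter. The marker list of monocyte-derived Mϕ had a summed level of 4545 to 14710 RPM (reads per 1000000 reads on genes) in VEH and 15569 to 27721 in CIII F4/80lo Mϕ, and 760 to 3461 against 1523 to 14352 in F4/80hi Mϕ. The MHCII genes and Cd74 made up most of this sum and had higher CIII means in both subpopulations. Ccr2 was at 52.5, 20.2 and 1199 RPM in VEH and at 306, 118 and 704 RPM in CIII replicates 1 to 3 of F4/80hi Mϕ. The B and plasma cell list, included because plasma cells are rich in ER chaperones, summed to 59.6 to 182 RPM in VEH and 114 to 274 in CIII F4/80lo Mϕ, and to 33.1 to 54.2 and 61.4 to 121 in F4/80hi Mϕ. Irf4, which is also in the monocyte-derived list, held much of that sum, and without it the ranges were 48.1 to 146 and 54.5 to 213 in F4/80lo Mϕ, and 2.76 to 44.7 and 31.1 to 83.8 in the F4/80hi libraries. Of the plasma cell markers Tnfrsf17 was at 0 in every library, Jchain reached 7.23 RPM and Mzb1 3.07 RPM, while Sdc1 reached 43.8 RPM and Prdm1 28.3 RPM. The neutrophil, T and NK cell, dendritic cell and mesothelial lists each summed to at most 259.9 RPM in any library. The part of these cells and of the number 3 libraries in the differences below was not tested, and in bulk samples a smaller share of cells expressing a gene and less of its RNA per cell cannot be told apart.

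Creld2 and Manf, the secreted proteins of the set, were lower with CIII in both subpopulations, in every library and within every replicate number. Creld2 (ENSMUSG00000023272, chr15:88819646-88826683, plus strand) encodes a cysteine-rich EGF-like protein of the ER. Its normalized counts in F4/80lo Mϕ were 38.4, 77.02 and 43.6 in VEH replicates 1 to 3 and 20.6, 29.7 and 19.9 in CIII replicates 1 to 3. Those in F4/80hi Mϕ were 58.5, 60.1 and 56.6 in VEH and 23.8, 28.8 and 19.7 in CIII. The highest CIII library thus lay below the lowest VEH library in each subpopulation. The means were 53.0 ± 20.9 against 23.4 ± 5.47 and 58.4 ± 1.75 against 24.1 ± 4.58 (SD, n = 3). On the log2(value + 1) scale, used for all fold changes here, these are differences of −1.10 and −1.26, or 2.15-fold and 2.39-fold lower levels. Within a replicate number the difference between treatments ran from −1.35 to −0.87 and from −1.48 to −1.03.

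Manf (ENSMUSG00000032575, chr9:106838312-106891979, minus strand) encodes a small secreted protein that binds BiP. Its normalized counts in F4/80lo Mϕ were 81.5, 133 and 105 in VEH and 54.6, 16.0 and 58.6 in CIII. Those of F4/80hi Mϕ were 90.4, 158 and 126 in VEH and 67.9, 46.9 and 47.0 in CIII. Again no CIII library reached the lowest VEH library. The means were 107 ± 26.1 against 43.1 ± 23.5 and 125 ± 33.8 against 53.9 ± 12.1, with log2 differences of −1.46 and −1.18. Within numbers 1, 2 and 3 the differences were −0.57, −2.98 and −0.83 in F4/80lo Mϕ, and −0.41, −1.73 and −1.40 in the other subpopulation. Number 2 was thus the most extreme for Manf in both, and the CIII value of F4/80lo replicate 2 rests on 7 reads in the shallowest library. Without that library the F4/80lo difference was −0.88. The annotated Manf gene overlaps Rbm15b on the same strand, to which 127 and 110 reads were assigned in all over the 6 libraries of each subpopulation, and Dcaf1 on the opposite strand, with 69 and 67.

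Over 18 other ways of processing the values, the log2 difference of Creld2 ran from −1.30 to −0.80 and from −1.39 to −1.13. The one of Manf ran from −1.78 to −0.88 and from −1.39 to −0.96. Lower values without overlap were also found for 4.92% of the 10718 genes tested in F4/80lo Mϕ and 5.76% of the 10499 in the F4/80hi table. Among the 10 genes this was the case for 3 (Manf, Creld2 and Sdf2l1) and 2 (Manf and Creld2), and since this contrast chose them, nothing is read from these counts.

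**Figure D2:**
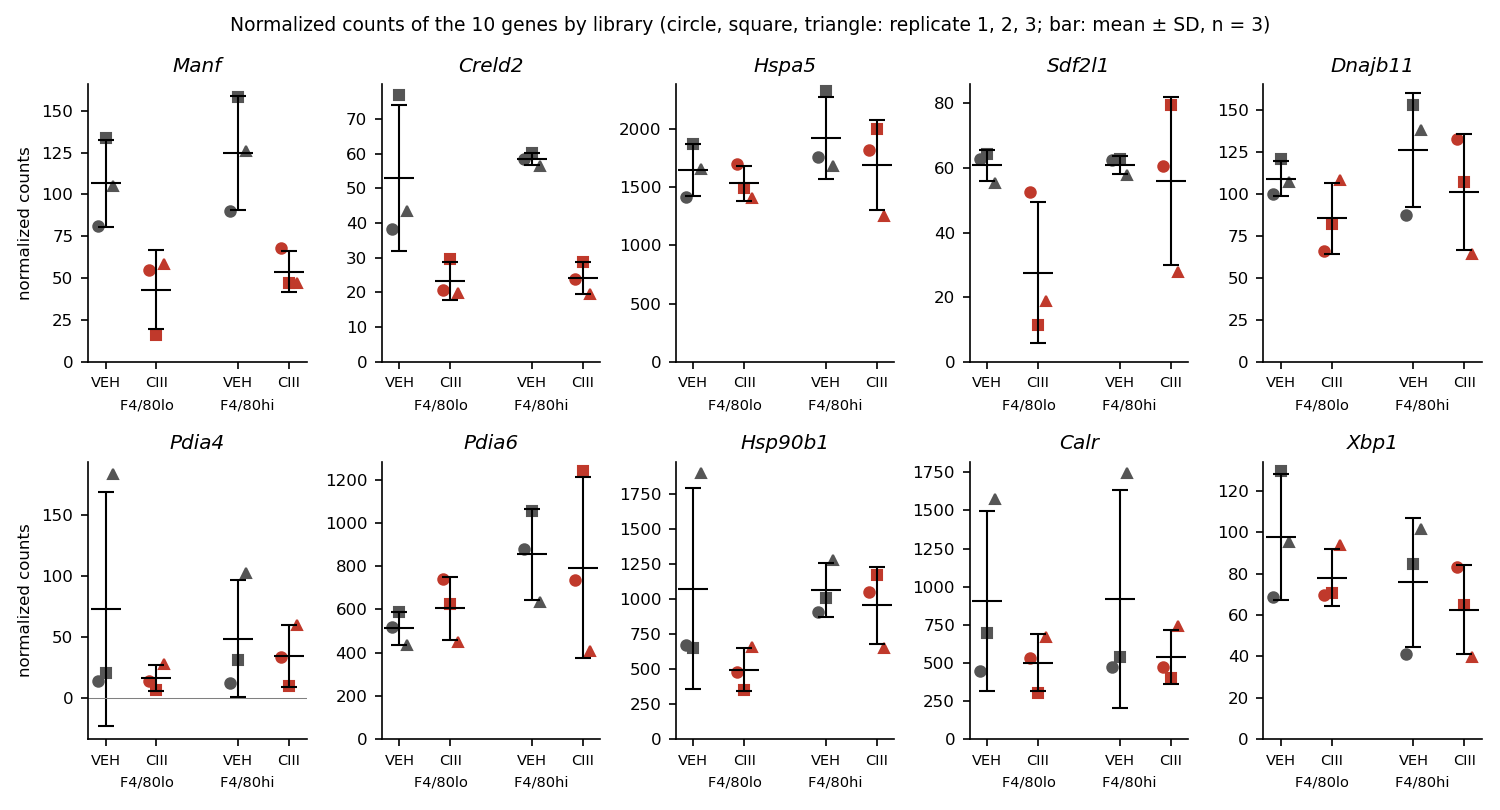
Normalized counts of the 10 genes in each of the 12 libraries, VEH in grey and CIII in red, with each subpopulation on its own normalization; symbols mark replicate numbers, bars the mean ± SD (n = 3). For Creld2 all CIII libraries lie between 19.7 and 29.7 and all VEH libraries between 38.4 and 77.02, while Hspa5 and Xbp1 overlap.

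Among the BiP partners, Sdf2l1 had separate ranges in VEH and CIII libraries of F4/80lo Mϕ and overlapping ones in F4/80hi Mϕ. Sdf2l1 (ENSMUSG00000022769, chr16:17130138-17132383, minus strand) encodes an ER protein that works with BiP and its J-domain cofactors. In F4/80lo Mϕ its normalized counts were 62.8, 64.2 and 55.3 in VEH and 52.5, 11.4 and 18.8 in CIII, a log2 difference of −1.38. All CIII libraries were lower, replicate 1 only narrowly, and replicate 2 held 5 reads. Without CIII replicate 2 the difference was −0.92. The F4/80hi values were 62.5, 62.7 and 57.6 in VEH and 60.6, 79.3 and 27.9 in CIII, a difference of −0.24. There CIII replicate 2 was the highest and CIII replicate 3 the lowest of the 6, and without CIII replicate 3 the difference was 0.18. Whether the difference of Sdf2l1 itself differs between the subpopulations was not tested.

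Dnajb11, an ER J-domain protein that hands unfolded chains to BiP, had overlapping libraries in both subpopulations. In F4/80lo Mϕ VEH libraries held 100 to 121 and CIII libraries 66.0 to 108 normalized counts (log2 difference −0.37, or −0.20 without CIII replicate 1). F4/80hi libraries held 87.8 to 153 and 64.0 to 133 (−0.34). The sign of the F4/80hi difference turned when number 3 was left out of both treatments (0.04).

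BiP itself showed the smallest differences of the set in F4/80lo Mϕ. Hspa5 (ENSMUSG00000026864, chr2:34771970-34777547, plus strand) had 1418, 1868 and 1656 normalized counts in VEH and 1697, 1494 and 1406 in CIII F4/80lo Mϕ. The F4/80hi values were 1759, 2328 and 1682 in VEH and 1816, 1997 and 1254 in CIII. Its libraries overlapped in both, and the log2 differences were −0.10 and −0.20, or −0.0046 without VEH replicate 2 and 0.0012 without CIII replicate 3. In number 1 of each subpopulation Hspa5 was higher in CIII, by 0.26 and 0.05 on the log2 scale.

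Hsp90b1 and Calr had lower CIII means in both subpopulations, and VEH replicate 3 held the highest value of each. Hsp90b1 (GRP94, the HSP90 of the ER; ENSMUSG00000020048, chr10:86690209-86705509, minus strand) had 670, 655 and 1906 normalized counts in VEH and 477, 354 and 661 in CIII F4/80lo Mϕ. Within each number the CIII library was lower, and the log2 difference was −0.97, or −0.46 without VEH replicate 3. Its F4/80hi values were 908, 1011 and 1281 in VEH and 1050, 1172 and 649 in CIII, with a difference of −0.19 and higher CIII values in numbers 1 and 2. Calreticulin, a lectin chaperone that also binds calcium, is encoded by Calr (ENSMUSG00000003814, chr8:84841850-84846934, minus strand). Calr had 448, 694 and 1573 normalized counts in VEH and 532, 302 and 670 in CIII F4/80lo Mϕ. Its F4/80hi libraries had 475, 541 and 1743 in VEH and 472, 404 and 741 in CIII. VEH replicate 3 was the highest library in both. The Calr differences of −0.73 and −0.55 were −0.23 and 0.04 without it. In VEH replicate 3 Gm42418 took 14.3% and 7.82% of the reads, and the cell markers of those libraries stood apart as given above, and their part in these values was not tested. A processed pseudogene, Calr-ps, was assigned 147 and 94 reads in all, and reads common to the pair are uncertain.

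The disulfide isomerases went different ways. Pdia4 (ERp72; ENSMUSG00000025823, chr6:47796141-47813430, minus strand) was the most scattered of the set. In F4/80lo Mϕ it had 13.96, 20.5 and 183 normalized counts in VEH and 14.2, 6.85 and 27.6 in CIII. F4/80hi libraries gave 11.97, 31.4 and 103 in VEH and 33.2, 9.61 and 60.2 in CIII. Its log2 differences of −1.37 and −0.32 became −0.25 and 0.46 without VEH replicate 3. They were smaller than its SD within treatments, 1.53 and 1.40 on the log2 scale. Pdia6 (P5), which also tempers IRE1, was the only member with a higher CIII mean in F4/80lo Mϕ. There it was higher in all 3 numbers, as were 13.1% of all genes (log2 difference 0.22, or 0.06 without CIII replicate 1), with overlapping ranges of 435 to 588 in VEH and 450 to 740 in CIII. Its F4/80hi range was 633 to 1054 in VEH and 406 to 1240 in CIII (−0.22, or 0.19 without CIII replicate 3).

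Xbp1, the transcription factor of the IRE1 branch, overlapped in both subpopulations. In F4/80lo Mϕ it had 68.7, 130 and 95.3 normalized counts in VEH and 69.5, 70.8 and 94.0 in CIII (log2 difference −0.29, or −0.06 without VEH replicate 2). The F4/80hi libraries had 41.2, 84.9 and 102 in VEH and 83.0, 64.9 and 39.9 in CIII (−0.24). The F4/80hi differences within numbers ran from −1.33 to 0.99, and their mean changed sign in 4 of 18 alternatives.

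**Figure D3:**
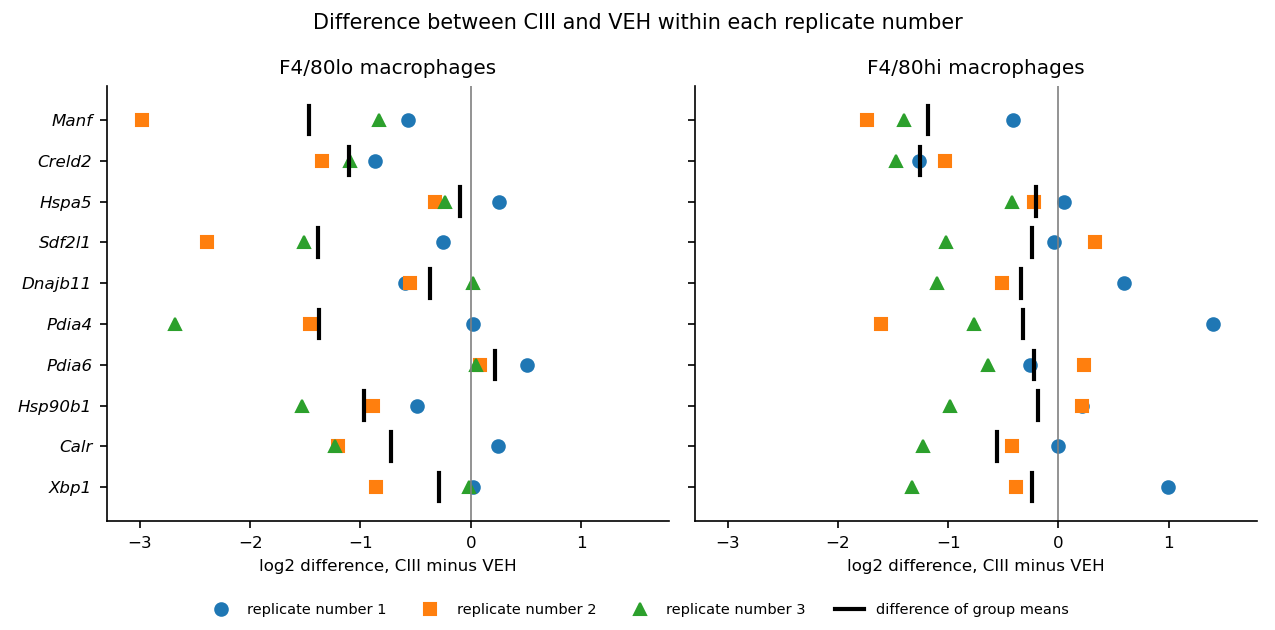
Log2 difference of normalized counts + 1, CIII minus VEH, within replicate numbers 1, 2 and 3 for each gene; the black bar is the difference of the group means. Manf and Creld2 lie left of 0 at every number in both panels, and number 1 (blue) lies right of 0 for 5 of the other 8 genes in each panel.

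Over the whole set, 9 of 10 genes had a log2 difference below 0 in F4/80lo Mϕ, where 54.1% of all tested genes did, and 10 of 10 in F4/80hi Mϕ, where 46.5% did. The medians were −0.85 (all genes −0.05) and −0.28 (all genes 0.05). The replicate numbers were unequal in this. Medians over the 10 genes were −0.12, −1.04 and −0.96 within F4/80lo numbers 1, 2 and 3, and 0.02, −0.40 and −1.06 within the F4/80hi numbers. Lower values in all 3 numbers were found for 4 F4/80lo genes (Manf, Creld2, Sdf2l1 and Hsp90b1, against 15.7% of all genes) and 3 F4/80hi genes (Manf, Creld2 and Calr, against 16.6%). Without VEH replicate 3 the F4/80lo median was −0.34, and without CIII replicate 3 the F4/80hi median was −0.02. Single genes ranged from −1.46 (Manf) to 0.22 (Pdia6) in F4/80lo Mϕ, and from −1.26 (Creld2) to −0.19 (Hsp90b1) in the other subpopulation.

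Across libraries the correlation between the genes varied from pair to pair. Of the 45 pairs among the 10 genes, Pearson's r over the 6 libraries of a subpopulation was above 0 in 38 and 37, with medians of 0.47 and 0.46. With the treatment means taken out, the medians over the 45 pairs were 0.22 and 0.46, with 30 and 35 pairs above 0. Manf and Creld2 had an r of 0.57 and 0.88, and of −0.21 and 0.04 once the treatment means were taken out. Pairs of other genes were not examined. These coefficients describe 6 libraries that share depth, normalization and treatment.

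Across all genes, no gene passed an adjusted p of 0.05 in either subpopulation (limma, Benjamini-Hochberg; smallest adjusted p 0.9996 and 0.992). Unadjusted limma p-values under 0.05 were found for 289 genes (2.7%) and 413 genes (3.93%). A replicate block in the fit gave 738 (6.89%) and 1187 (11.3%), with 0 after adjustment (smallest 0.302 and 0.0689). DESeq2 on the recovered reads called 2 genes and 0 genes, edgeR 0 in both, and no gene called by any of these is in the ER lists.

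The other genes of the pathway were read from 7 lists, of which 173 and 172 genes were tested. None passed the adjusted threshold in either direction. At an unadjusted p under 0.05 the limma fit gave 4 genes in F4/80lo Mϕ, all lower, and 7 in F4/80hi Mϕ, 5 lower and 2 higher. With the block these counts were 12 and 27. Of the genes named below, the block brought Ppib and Srp19 under 0.05 before adjustment in both subpopulations, Ern1, Sec23b and Hspe1 in F4/80lo Mϕ, and Fkbp2, Ost4 and Cct5 in the F4/80hi table, and statements on single genes below refer to the fit without it unless said.

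Of the genes that carry new chains into the ER and glycosylate them, 27 of 31 tested genes were below 0 in the first subpopulation (median −0.22) and 28 of 31 in the second (median −0.50), or 87.1% and 90.3% of the list against 54.1% and 46.5% of all genes. Without CIII replicate 3 the medians were −0.06 and −0.25. Srp19, of the signal recognition particle, had means of 95.4 ± 31.4 in VEH and 48.7 ± 28.9 in CIII F4/80lo Mϕ (log2 difference −1.12 ± 0.52, SE of the limma fit) and 86.1 ± 18.8 and 52.9 ± 7.57 in F4/80hi Mϕ (−0.68 ± 0.34). Ost4, a small subunit of the oligosaccharyltransferase, differed by −1.69 ± 0.72 and −1.30 ± 1.12, and Srprb, of the receptor for that particle, by −0.78 and −0.71. Chosen after their values were seen, Sec61b of the translocon differed by −0.66 and −2.10, and Ostc by −0.12 and −0.89. Spcs3 of the signal peptidase, chosen in the same way, differed by −1.23 and −0.47. Ost4 and Spcs3 in F4/80lo Mϕ, and Sec61b and Ostc in F4/80hi Mϕ, are among the genes under 0.05 before adjustment.

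Other ER folding genes had a median close to that of the list above in F4/80lo Mϕ and nearer that of all genes in F4/80hi Mϕ. Of 31 and 32 tested, 23 and 19 were below 0, with medians of −0.21 and −0.08. These are 74.2% and 59.4% of the list, against 54.1% and 46.5% of all genes. The lists were not tested against each other. Leaving out CIII replicate 2 gave −0.12 and −0.26, and leaving out CIII replicate 3 gave −0.01 in F4/80hi Mϕ. Ppib (cyclophilin B, a prolyl isomerase of the ER) had means of 76.1 ± 9.75 in VEH and 40.5 ± 23.3 in CIII F4/80lo Mϕ (−1.08 ± 0.50) and 87.9 ± 11.6 and 49.8 ± 26.6 in F4/80hi Mϕ (−0.93 ± 0.43). Fkbp2, another prolyl isomerase, differed by −1.29 ± 0.48, under 0.05 before adjustment, and −1.39 ± 0.88. Uggt1, which checks the folding of glycoproteins, differed by 0.39 and 0.51. Creld1, the paralog of Creld2, differed by −0.55 and 0.28, and Cdnf, the paralog of Manf, was below the filter on low values. Both were chosen for their kinship to the secreted members, after their values were seen. Rcn2, likewise chosen after its values were seen, had log2 differences of 0.30 and 0.92, the latter under 0.05 before adjustment.

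Among the sensors and regulators of the UPR, 4 and 6 of 15 tested genes were below 0, or 26.7% and 40% against 54.1% and 46.5% of all genes, and both medians were 0.20. The medians were 0.02 in F4/80lo Mϕ without CIII replicate 3 and 0.06 in F4/80hi Mϕ without VEH replicate 3. Ern1, which encodes IRE1α, the enzyme that splices Xbp1, had means of 45.0 ± 10.9 in VEH and 80.0 ± 15.4 in CIII F4/80lo Mϕ (log2 difference 0.83 ± 0.38, SE). The F4/80hi means were 41.8 ± 25.3 and 92.9 ± 33.8 (1.23 ± 0.49). Its adjusted p-values in limma were 0.9996 and 0.992, and before adjustment the F4/80hi difference was under 0.05 without the replicate block and both were with it. Atf6 differed by 0.36 and 0.37, and Eif2s1, whose product PERK phosphorylates, by −0.75 and −0.71.

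ER-associated degradation had 14 of 25 genes below 0 in the first subpopulation (median −0.07) and 16 of 25 in the second (−0.16). Of all tested genes 54.1% and 46.5% were below 0. Its medians ran from −0.20 (without VEH replicate 3) to 0.12 (without VEH replicate 2) and from −0.22 (without CIII replicate 1) to −0.03 (without CIII replicate 3) with single libraries left out, and the second was 0.03 without number 3 of both treatments. Its ligase Syvn1 (HRD1), which holds an ERSE, differed by −0.65 and −0.55, Ube2j2, a ubiquitin-conjugating enzyme, by −1.03 and −0.50, and Derl1 by 0.38 and −0.44. For KDEL receptors and vesicle transport, 11 of 27 and 20 of 27 were below 0 (medians 0.06 and −0.28, or −0.05 without VEH replicate 3 and −0.12 without VEH replicate 2). Sec13 of the COPII coat differed by −0.85 ± 0.50 and −0.97 ± 0.41, Bet1 by −0.95 and −0.82, and Sec23b by 0.81 and −0.53. Among targets of ATF4 and CHOP, 9 of 16 and 8 of 14 were below 0 (−0.25 and −0.15, or −0.02 without VEH replicate 2 and 0.07 without CIII replicate 3, while a filter at a mean of 10 gave −0.52 in the first and DESeq2 −0.33 in the second). Psat1, of serine synthesis, differed by −0.80 ± 0.58 and −1.29 ± 0.44, Mthfd2 by −0.72 and −0.93, and Aldh18a1, listed at under 10 normalized counts in every mean, by 1.46 and −1.19. Cytosolic and mitochondrial chaperones, included as folding genes outside the ER, had 23 of 28 and 17 of 28 below 0, or 82.1% and 60.7%. Their medians were −0.31 and −0.10, and the first was the lowest of the 7 lists in F4/80lo Mϕ. Without VEH replicate 2 the first median was −0.08, and the second ran from −0.34 (without VEH replicate 1) to −0.02 (without CIII replicate 3). Hspe1, the mitochondrial HSP10, differed by −0.96 ± 0.45 and −1.23 ± 0.48, Cct5 by −0.49 and −0.59, and Tcp1 by −0.43 and −0.53. Ahsa1, a cochaperone of HSP90 chosen after its values were seen, differed by −1.77 and −0.13. The F4/80hi differences of Sec13, Psat1 and Hspe1 and the F4/80lo difference of Ahsa1 were under 0.05 before adjustment.

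**Figure D4:**
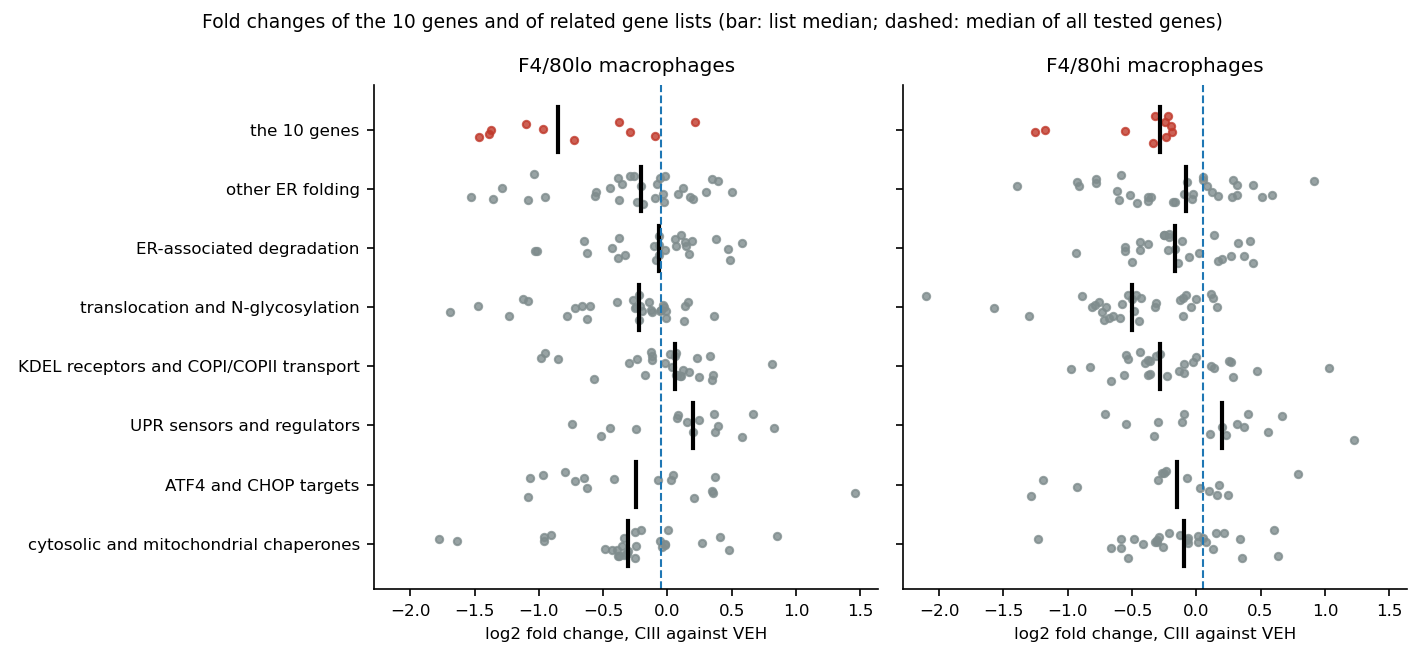
Log2 fold change, CIII against VEH, of each tested gene of the 10-gene set (red) and of 7 related lists (grey) in both subpopulations; black bars are list medians and the dashed line is the median of all tested genes. The translocation and N-glycosylation list lies mostly left of the line in both panels (medians −0.22 and −0.50), and the median of the UPR sensors and regulators lies right of it (0.20 in both), with single genes on either side.

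Genes outside the set were ranked by how closely they followed it, using Pearson's r with the mean standardized level of the 10 genes over the 6 libraries of each subpopulation. Of 6010 genes with at least 20 normalized counts on average, the 10 with the highest value of the smaller r were Ccl2, Hnrnpd, Trim8, Atp5b, Acap2, Park7, Ddx39, Metap2, Ubxn4 and Hars, all with an r of at least 0.805. Ccl2, the monocyte chemoattractant, led with r of 0.89 and 0.91. Its means were 83.0 ± 27.6 in VEH and 17.9 ± 4.82 in CIII F4/80lo Mϕ, and 65.0 ± 57.9 and 23.7 ± 17.2 in F4/80hi Mϕ. Ubxn4 is the only one of the 10 in the ER lists, which held 2.45% of the ranked genes. Of the first 50, 6 were in those lists. The ranking used the libraries of both treatments, and the set was selected on the difference between them. Genes lower with CIII therefore rank high by construction, and nothing about the pathway is read from this ranking.

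Levels in the subpopulations were set side by side in RPM of each library, since the tables had been normalized separately, and were not tested across them. None of the 10 genes separated the 6 F4/80lo from the 6 F4/80hi libraries, which 0.495% of the 10097 genes tested in both did with F4/80lo higher and 0.109% with F4/80hi higher. Mean log2 differences, F4/80lo minus F4/80hi, were below 0 for 9 of 10, with a median of −0.31 (all genes 0.06), or −0.17 without the libraries of number 2 and −0.49 without those of number 3. Xbp1 alone was above 0 (0.35), with F4/80lo higher in 3 of 6 pairs matched by treatment and number. No member had the same direction in 6 of 6 pairs, which 7.33% of genes had with F4/80lo higher and 3.94% with F4/80hi higher. In CIII libraries alone the mean difference was −1.20 for Sdf2l1, −0.999 for Hsp90b1 and −0.95 for Pdia4. In VEH libraries alone it was −0.03, −0.18 and 0.13 for these genes, and Calr was also above 0 there (0.02). The CIII value of Sdf2l1 was −0.23, −2.83 and −0.55 within replicates 1 to 3, the second of them resting on 5 F4/80lo reads. Sdf2l1 had 61.4 ± 11.2 RPM in VEH F4/80lo and 62.2 ± 8.84 in VEH F4/80hi Mϕ, and 29.4 ± 24.1 against 61.9 ± 30.4 with CIII. Creld2 was at 54.3 ± 26.4 and 59.5 ± 7.63 with VEH and at 24.5 ± 5.18 and 26.5 ± 5.93 with CIII, so its levels in the subpopulations lay within each other's spread under either treatment. For Manf they were 108 ± 34.1 and 128 ± 42.2 with VEH and 45.7 ± 25.4 and 59.1 ± 13.96 with CIII.

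**Figure D5:**
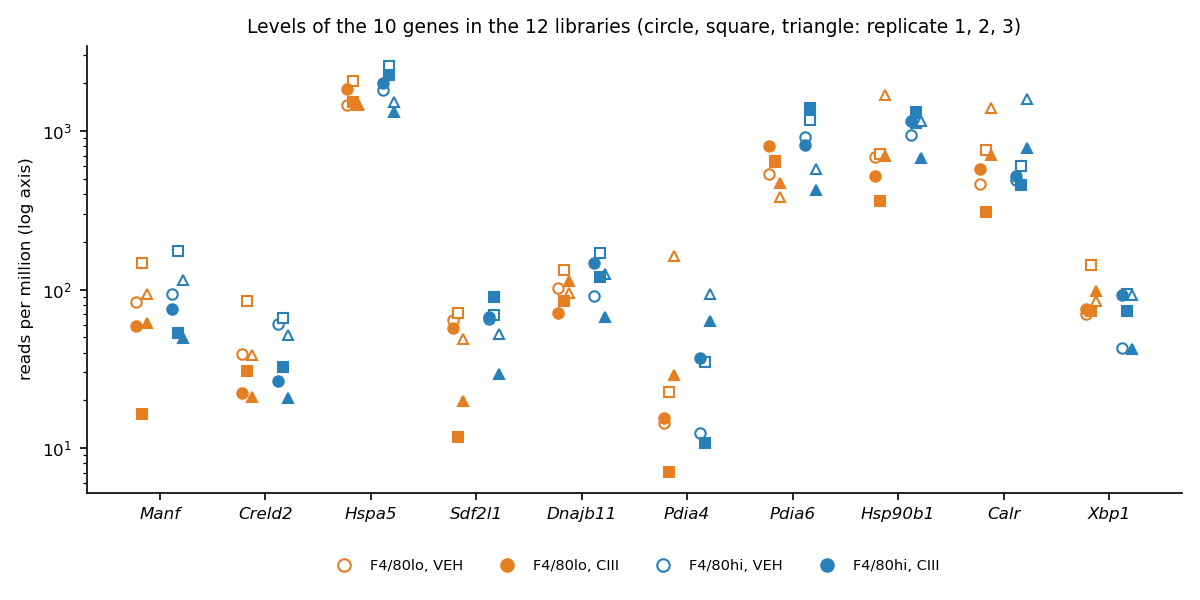
RPM (reads per 1000000, log axis) of the 10 genes in all 12 libraries, F4/80lo in orange and F4/80hi in blue, VEH open and CIII filled. The orange and blue points overlap for every gene, and for Creld2 the filled points lie below the open ones in both subpopulations.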

How the data were processed

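RNA of the sorted Mϕ was made into QuantSeq 3′ mRNA libraries with molecular identifiers and sequenced on a NextSeq instrument. The authors trimmed reads, aligned them with STAR to GRCm38, collapsed identifiers, counted with HTSeq and normalized with DESeq2. The strand setting and the annotation release were not given in the sources used here. The deposited signal values are normalized counts, whole reads divided by 1 size factor per library, set separately for each subpopulation. Whole reads were recovered from them, with 100% of values whole within 0.01 read. Gene coordinates are those of the GRCm38 annotation.

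Fits used limma 3.58.1 in R 4.3.3 (trend, two-sided) on log2(value + 1) for genes averaging 3 normalized counts or more, with Benjamini-Hochberg adjustment at 0.05. Alternatives were other pseudocounts and filters, other normalizations, sample weights, DESeq2 1.42.0 and edgeR 4.0.16 on recovered reads, the replicate block, and leaving out libraries. An exact permutation test of 3 against 3 cannot go below 0.1 and was not used. The replicate numbers of the labels were taken to pair the samples, as same-numbered VEH and CIII libraries deviated together (r 0.12, 0.24 and 0.50 for F4/80lo and 0.22, 0.41 and 0.64 for F4/80hi numbers 1 to 3). The pairs were not all distinct: VEH replicate 1 correlated more with CIII replicate 2 (0.17 and 0.28) than with CIII replicate 1, and number 3 correlated negatively with the others. The labels do not say whether libraries came from separate mice, so p-values measure only the spread between them. The floor of 3 reads corresponded to 0.885 to 7.03 reads per 1000000 in a library, for counting error only.

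The 10 genes, the pathway lists and the motifs were chosen with earlier results of these data known. Named pathway genes were the up to 3 per list with the smallest larger p of both subpopulations, unless said otherwise.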

Additional observations from a re-analysis of the deposited data

How the results depend on the processing

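No adjusted call was made in F4/80hi Mϕ under any of 18 alternatives. In F4/80lo Mϕ sample quality weights called 2 genes (Ffar2 and Card9), DESeq2 called 2 (Ffar2 and Lrg1), and leaving out number 3 of both treatments, chosen after seeing the data, called 12, against 0 in the others. None is one of the 10 genes or in the ER lists. The median over the 10 genes in F4/80lo Mϕ was −0.48 with sample weights and −1.17 to −0.34 with single libraries left out, and in F4/80hi Mϕ −0.60 to −0.021. Pathway genes at an unadjusted p under 0.05 numbered 8 with no filter, 12 with the replicate block and 15 with sample weights in F4/80lo Mϕ, against 4. Leaving out libraries gave 1 to 18, the highest without number 3 of both treatments. In F4/80hi Mϕ they numbered 27 with the replicate block, 13 without number 3 of both treatments and 0 to 17 without single libraries, against 7. With single libraries left out, list medians changed sign for ER-associated degradation and for KDEL receptors and transport in F4/80lo Mϕ, and for ATF4 and CHOP targets in F4/80hi Mϕ. The cause of these shifts was not tested. Signs of single members changed in F4/80lo Mϕ for Hspa5 alone, with sample weights (0.08), and in F4/80hi Mϕ for all but Manf and Creld2 in 1 to 4 alternatives each. The shallowest library, CIII F4/80lo replicate 2, held 3 to 7 reads of Pdia4, Sdf2l1 and Manf, which limits those values.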
